A study of Mus musculus with 8 samples.

Results

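Osteoclasts, the multinucleated cells that resorb bone and calcified cartilage, form by fusion of precursors of the monocyte and macrophage lineage. Their formation requires RANKL, a ligand made by osteoblasts, osteocytes and hypertrophic chondrocytes among other cells, which binds the receptor RANK on the precursors. OPG, a secreted decoy receptor, binds RANKL and keeps it from RANK. Downstream of RANK, together with costimulatory receptors that raise calcium, the transcription factor NFATc1 turns on the genes for fusion, acid secretion and matrix breakdown. In the newborn spine, osteoclasts are known from the ossifying vertebral bodies that lie next to the discs.

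The 10 genes described here are the ligand Tnfsf11 (RANKL), the receptor Tnfrsf11a (RANK), the decoy receptor Tnfrsf11b (OPG), the transcription factor Nfatc1, the costimulatory receptor gene Oscar, the fusion genes Dcstamp and Ocstamp, and the effector genes Ctsk, Acp5 and Calcr. They were chosen by name, as known genes of osteoclasts and of RANKL signaling, out of 43346 gene identifiers counted in each sample. The choice was made with earlier results of these data known. All 10 had a row in the counts. Of these, 5 passed the filter on low counts and were tested (Ctsk, Acp5, Nfatc1, Tnfrsf11a and Tnfrsf11b), and 5 had too few reads (Calcr, Dcstamp, Ocstamp, Oscar and Tnfsf11).

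RNA was sequenced from notochord-derived cells (NDCs) of Shh-cre;ROSA:YFP mice, a line in which Shh-driven Cre switches on YFP in the cells that express Shh and in all their progeny. There were 4 E12.5 litters (NDP10.2, NPD3, NPD4 and NPD9.2), labelled notochordal cells, and 4 P0 litters (NPD26, NPD27, NPD28 and NPD30), labelled nucleus pulposus (NP) cells derived from the notochord, each sample being the pooled embryos or pups of a single litter. At E12.5 whole notochords were dissected without a sort, whereas at P0 the NPs were dissociated and YFP-positive cells were sorted. The effect of stage and that of the isolation method therefore cannot be told apart. Values of single litters are given in the order just used. The comparison addresses how mRNA abundance in these cells differs between the notochord and the newborn NP.

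Reads counted on genes numbered 4442775 to 7180221 per E12.5 litter and 6371842 to 8904050 per P0 litter. Values are given in CPM, the reads of a gene scaled to the size of its library after TMM normalization, and 3 reads equal 0.351 to 0.734 CPM, a floor that covers counting error only. The NP markers T, Krt8, Krt19 and Cd24a were present in every litter, whereas Noto was at or near 0 in all 8 and Shh itself ranged from 418 to 1341 CPM in the E12.5 litters and from 0.156 to 11.8 CPM in the P0 litters. In these bulk samples, fewer cells of a type and less RNA per cell cannot be told apart. The P0 litter NPD30 lay below the other P0 litters in summed macrophage and pan-leukocyte markers. The E12.5 litters NDP10.2 and NPD9.2 had more reads that could not be given to a single gene (16.3% and 17.5%, against 7.07% to 11.6% in the other 6 litters). Results are therefore also given without those litters.

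Of the 10 genes 5 were tested. At P0 compared to E12.5, 4 of these 5 had higher mRNA abundance by the edgeR quasi-likelihood test at an adjusted p under 0.05, and none was lower. They were Ctsk, Acp5, Tnfrsf11a and Tnfrsf11b. Among all 15467 genes tested the same test called 27.9%, with 16.0% higher and 12.0% lower at P0. Tnfrsf11a and Tnfrsf11b passed the filter through their P0 reads, which left little room for a lower call. When at least 10 counts were required in every sample, both left the test. Of the 3 genes still tested 2 were called, in a fit that called 26.1% of all genes. In 4 of the 10 genes (Ctsk, Tnfsf11, Tnfrsf11a and Tnfrsf11b) every P0 litter lay above every E12.5 litter, a separation seen in 15.4% of the genes tested and in 9.72% of the 32299 genes with at least 1 count. Tnfsf11 is among the latter only, since it did not pass the filter. The ligand Tnfsf11 and the fusion gene Dcstamp had no read in any E12.5 litter.

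**Figure D1:**
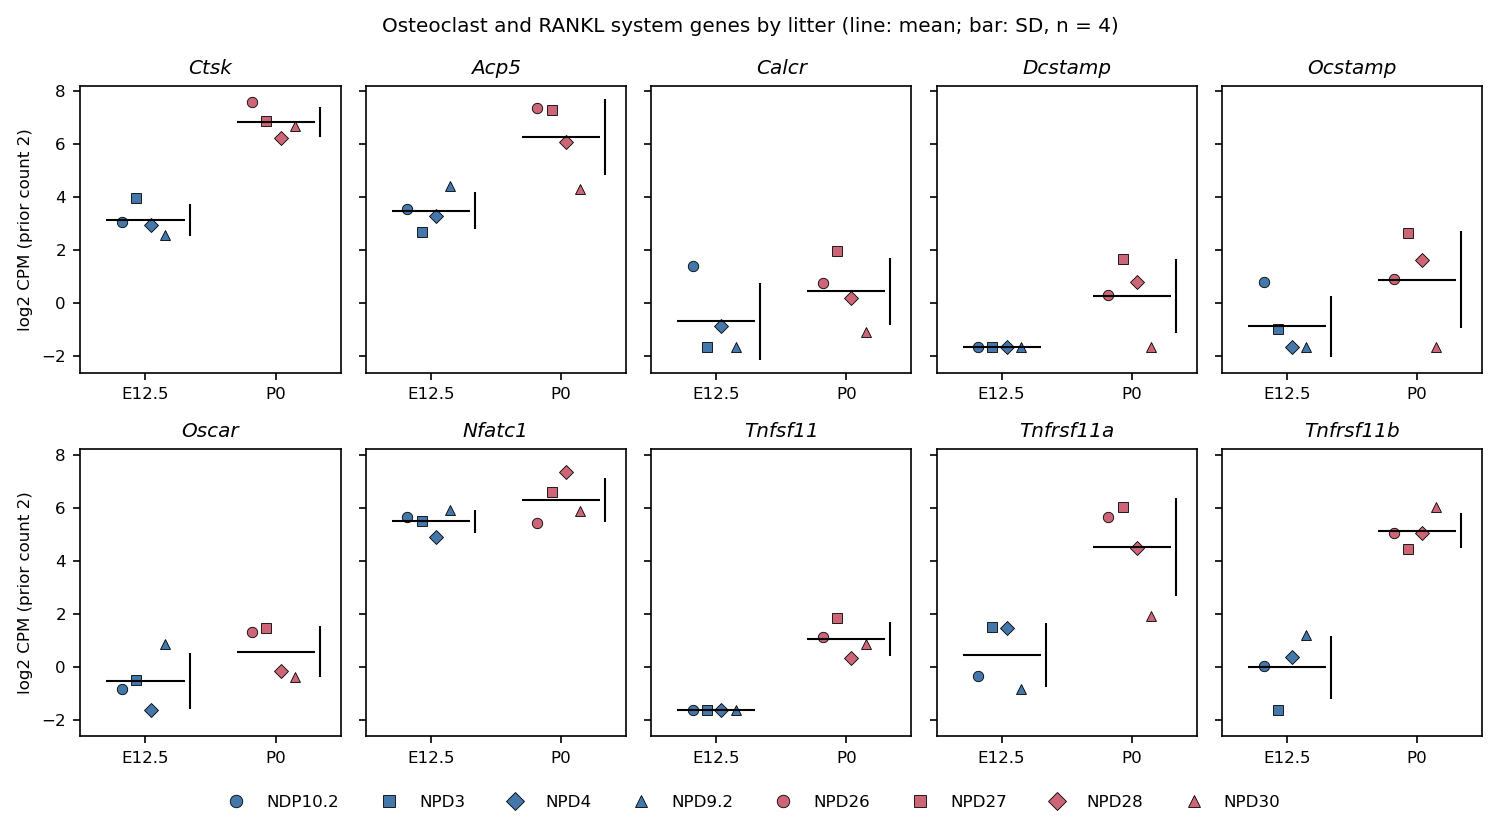
Each panel plots log2 CPM (with a prior count of 2, y axis) of a gene in the 4 E12.5 and 4 P0 litters (x axis), with a symbol per litter, the mean as a horizontal line and the SD over 4 litters as a vertical bar. Ctsk, Tnfsf11, Tnfrsf11a and Tnfrsf11b show no overlap between the stages, and the litter NPD30 has the lowest P0 symbol for Acp5, Calcr, Dcstamp, Ocstamp, Oscar and Tnfrsf11a and the highest for Tnfrsf11b.

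The letters before the start sites of Ctsk, Acp5 and Tnfsf11 are shown because these genes stand for the resorbing enzymes and for the ligand, and because the factors that osteoclast biology assigns to such genes have short known motifs. The sequences are from RefSeq on GRCm38.p6 and cover the 250 bases before the start, written 5′ to 3′ on the strand of the gene. Start sites were given for 6 of the 10 genes, with 9 windows in all. Capitals mark the NFAT core GGAAA and the PU.1 core GAGGAA, read on either strand, so that TTTCC and TTCCTC are matches too.
Ctsk (chr3:95498960-95499209, plus strand): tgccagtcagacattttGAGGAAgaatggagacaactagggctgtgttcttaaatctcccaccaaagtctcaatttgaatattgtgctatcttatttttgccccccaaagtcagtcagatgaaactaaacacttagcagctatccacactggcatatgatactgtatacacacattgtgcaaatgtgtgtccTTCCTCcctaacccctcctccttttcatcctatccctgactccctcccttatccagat
Acp5, outermost start (chr9:22135747-22135996, minus strand): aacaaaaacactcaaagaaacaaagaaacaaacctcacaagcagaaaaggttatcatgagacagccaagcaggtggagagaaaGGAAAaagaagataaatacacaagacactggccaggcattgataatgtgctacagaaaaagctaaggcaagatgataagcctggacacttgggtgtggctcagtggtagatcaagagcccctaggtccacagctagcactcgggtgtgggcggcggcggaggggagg
Tnfsf11 (chr14:78308044-78308293, minus strand): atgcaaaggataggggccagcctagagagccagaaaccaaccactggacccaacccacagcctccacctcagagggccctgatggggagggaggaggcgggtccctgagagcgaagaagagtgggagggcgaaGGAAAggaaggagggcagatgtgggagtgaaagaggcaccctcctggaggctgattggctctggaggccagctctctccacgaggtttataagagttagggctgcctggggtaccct

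The Ctsk window held 2 PU.1 cores, 233 and 58 bases before the start, and no NFAT core. The Acp5 window shown held 1 NFAT core, 167 bases before the start, and the Tnfsf11 window held 1, 117 bases before the start. The Tnfrsf11a window held neither core. Across 32851 promoter windows of this length, 55.6% held the NFAT core and 23.3% the PU.1 core. The AP-1 site TGANTCA, found in 6.75% of all windows, was in none of the 9 windows, and the MITF E-box (CACGTG or CATGTG), found in 17.6%, was in 1 of the inner Acp5 windows and in the Oscar window. A match of letters is a description and not a binding site.

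Tnfsf11 encodes RANKL, the ligand that starts osteoclast formation (chr14:78277445-78308043, minus strand, GRCm38). It had 0 reads in all 4 E12.5 litters and 12, 23, 8 and 10 reads in the P0 litters. These equal 1.87, 3.28, 0.936 and 1.51 CPM, with a mean of 1.90 ± 0.996 CPM (SD, n = 4). RANKL mRNA was therefore detected in every P0 litter and in no E12.5 litter, at a low level that the filter on low counts removed. The pooled P0 level was 13.5 times the floor of 3 reads over the pooled E12.5 group (0.138 CPM). The lower limit of the 95% exact interval of the P0 to E12.5 ratio was 10.6, counting error only. When no filter was applied, the edgeR adjusted p was 0.00137, in a fit that called 15.2% of 32299 genes.

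Tnfrsf11a encodes RANK, the receptor on osteoclast precursors (chr1:105780718-105847981, plus strand). It had 0.470, 2.52, 2.40 and 0.245 CPM in the E12.5 litters. In the P0 litters it had 50.3, 64.7, 21.9 and 3.47 CPM. All P0 litters lay above all E12.5 litters, but NPD30 exceeded the highest E12.5 litter by only 1.38-fold. Mean abundance rose from 1.41 ± 1.22 CPM to 35.1 ± 27.6 CPM (SD, n = 4 each), a log2 fold change of 4.53 (SE 0.92, edgeR adjusted p = 0.00529), or 23.0-fold. The call was lost with limma-voom (adjusted p = 0.15) and without the E12.5 litters NDP10.2 and NPD9.2 (log2 fold change 3.79, edgeR adjusted p = 0.0588). Without NPD30 the log2 fold change was 4.86 (edgeR adjusted p = 0.000244).

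Tnfrsf11b encodes OPG, the decoy receptor that limits bone resorption (chr15:54250619-54278484, minus strand). It had 3, 0, 8 and 8 reads in the E12.5 litters, which equal 0.705, 0, 0.962 and 1.96 CPM. In the P0 litters it had 32.7, 21.5, 32.4 and 65.1 CPM. The lowest P0 litter thus lay far above the highest E12.5 litter, and NPD30, the P0 litter with the least RANK, had the most OPG. The mean rose from 0.906 ± 0.811 CPM to 37.9 ± 18.8 CPM (SD, n = 4 each), a log2 fold change of 5.40 (SE 0.66, edgeR adjusted p = 0.000444), or 42.2-fold. This was the largest fold change among the 5 genes tested, and without NPD30 it was 4.97 on the log2 scale (edgeR adjusted p = 0.000159). Without the E12.5 litters NDP10.2 and NPD9.2 it was 6.02 (edgeR adjusted p = 0.0112). The fold change rests on 19 reads over the E12.5 litters, and the gene passed the filter through its P0 reads.

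**Figure D2:**
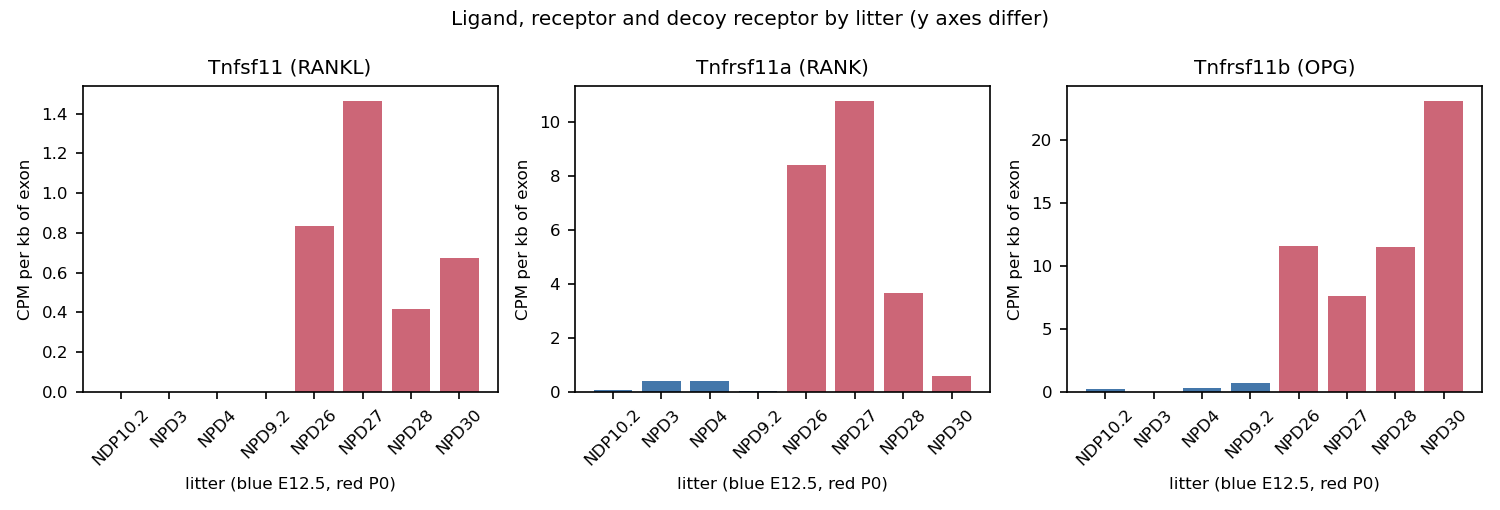
Bars give CPM per kb of exon (y axes, which start at 0 and differ between panels) of Tnfsf11, Tnfrsf11a and Tnfrsf11b in each litter (x axis; blue E12.5, red P0). Tnfsf11 is at 0 in the E12.5 litters, Tnfrsf11a is highest in NPD27 and lowest of the P0 litters in NPD30, and Tnfrsf11b is highest in NPD30.

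OPG reads outnumbered RANKL reads in every P0 litter. There were 17.5, 6.57, 34.6 and 43.1 Tnfrsf11b reads per Tnfsf11 read in NPD26, NPD27, NPD28 and NPD30, or 13.9, 5.21, 27.5 and 34.2 after division by exon length. Of the 1122 reads on either gene at P0, 53 were from Tnfsf11, a share of 4.72% (95% exact binomial interval 3.56% to 6.13%, counting error only). The share was 13.2% in NPD27 (8.57% to 19.2%) and 2.27% in NPD30 (1.09% to 4.13%), intervals that do not overlap. The mean log2 ratio of RANKL to OPG at P0 was -4.10 (SD 1.12, n = 4). At E12.5 there were only 19 reads on the pair of genes, all from Tnfrsf11b, for which the 95% exact interval of the RANKL share reaches 17.6%. A difference in the ratio between the stages was not detectable at this depth. OPG and RANK differed in their order among the P0 litters: there were 0.650 and 0.333 Tnfrsf11b reads per Tnfrsf11a read in NPD26 and NPD27, 1.48 in NPD28 and 18.7 in NPD30. After division by exon length these were 1.38, 0.706, 3.15 and 39.8, so that NPD27 alone had less OPG than RANK per kb.

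Nfatc1 encodes the transcription factor regarded as the main switch of osteoclast differentiation (chr18:80606205-80713071, minus strand), and other cell types, such as endocardium and lymphocytes, express it too. It had 49.8, 44.5, 29.5 and 60.0 CPM in the E12.5 litters. In the P0 litters it had 42.1, 95.4, 161 and 58.9 CPM. The stages overlapped, since NPD26 and NPD30 lay within the E12.5 range. The means were 45.9 ± 12.7 CPM and 89.3 ± 52.6 CPM (SD, n = 4 each), a log2 difference of 0.97 (SE 0.40, edgeR adjusted p = 0.0958) that did not pass the test. It passed without the litter NPD26 (log2 fold change 1.21, edgeR adjusted p = 0.038) and when no filter was applied (edgeR adjusted p = 0.0247). Without NPD28, its highest litter, the log2 difference was 0.53 (edgeR adjusted p = 0.283). An annotated gene on the opposite strand, AC123818.1, overlaps Nfatc1, and whether the counting used strand is not given in the sources used here.

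Ctsk encodes cathepsin K, the collagen-degrading protease of osteoclasts (chr3:95499256-95509362, plus strand). It had 7.98, 15.5, 7.45 and 5.63 CPM in the E12.5 litters. In the P0 litters it had 194, 118, 75.8 and 103 CPM. Every P0 litter was several times above every E12.5 litter, NPD30 by 6.63-fold over the highest. Mean abundance rose from 9.15 ± 4.38 CPM to 123 ± 50.5 CPM (SD, n = 4 each), a log2 fold change of 3.74 (SE 0.40, edgeR adjusted p = 0.000206), or 13.4-fold. This gene passed with each litter left out in turn and under each other setting tried.

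Acp5 encodes tartrate-resistant acid phosphatase, the enzyme whose stain is used to find osteoclasts (chr9:22126727-22135711, minus strand). It had 11.5, 6.22, 9.62 and 21.1 CPM in the E12.5 litters. In the P0 litters it had 167, 157, 68.3 and 19.5 CPM. The stages overlapped through NPD30 alone, which lay just below NPD9.2. The mean rose from 12.1 ± 6.36 CPM to 103 ± 71.4 CPM (SD, n = 4 each), a log2 fold change of 3.11 (SE 0.65, edgeR adjusted p = 0.00593), or 8.62-fold. Without NPD30 it was 3.42 on the log2 scale (edgeR adjusted p = 0.000203), and the gene passed under each other setting tried. An annotated gene on the opposite strand, 6530413G14Rik, overlaps Acp5, and the strand setting of the counting is not given in the sources used here.

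The remaining effector and the fusion genes were rare. Calcr, the calcitonin receptor through which calcitonin restrains osteoclasts (chr6:3685680-3764714, minus strand), had 10, 0, 2 and 0 reads at E12.5 and 9, 25, 7 and 1 reads at P0,. Dcstamp, a membrane protein needed for osteoclast fusion (chr15:39745930-39760938, plus strand), had 0 reads in all E12.5 litters and 6, 20, 12 and 0 reads in the P0 litters. Ocstamp, its partner in fusion (chr2:165393760-165400405, minus strand), had 6, 1, 0 and 0 reads at E12.5 and 10, 42, 24 and 0 reads at P0. The P0 litter NPD30 had none of either fusion gene, so both overlapped with E12.5. The pooled P0 level of Dcstamp was 9.66 times the 3-read floor of the E12.5 group (lower limit of the 95% exact interval of the P0 to E12.5 ratio 7.48). That of Ocstamp was 8.28 times the E12.5 level (95% exact interval 3.83 to 21.3, counting error only). The Ocstamp ratio depended on the E12.5 litters, since 6 of the 7 reads were from NDP10.2: it was 46.6 without that litter (8.12 to 1865) and 5.12 without NPD4 (2.37 to 13.2). When no filter was applied, edgeR gave an adjusted p of 0.01 for Dcstamp, 0.0894 for Ocstamp and 0.448 for Calcr.

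Oscar encodes an immunoglobulin-like receptor that binds collagen and costimulates osteoclast formation (chr7:3609813-3616157, minus strand). It had 1, 2, 0 and 6 reads at E12.5 and 14, 17, 5 and 3 reads at P0. The stages overlapped, and edgeR without a filter gave an adjusted p of 0.373. The pooled P0 level was 3.30 times the E12.5 level (95% exact interval 1.57 to 7.75, counting error only), but 8.05 times without NPD9.2 (2.56 to 40.7) and 2.04 times without NPD4 (0.974 to 4.80).

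Per kb of exon, the order of the mean levels at P0 was Ctsk (81.2 ± 33.4 CPM per kb), Acp5 (50.8 ± 35.2), Tnfrsf11b (13.5 ± 6.68), Nfatc1 (12.0 ± 7.04) and Tnfrsf11a (5.86 ± 4.61; SD, n = 4 each). Tnfsf11 (0.849 ± 0.446), Oscar (0.763), Ocstamp (0.707), Dcstamp (0.487) and Calcr (0.379) followed. Neighbours in this order differed by less than their spread, except that Acp5 lay above Tnfrsf11b and Tnfrsf11a above Tnfsf11 by more than the SD of either gene. Both of these gaps were reversed in NPD30, where Tnfrsf11b (23.1 CPM per kb) lay above Acp5 (9.59) and Tnfsf11 (0.675) above Tnfrsf11a (0.580). By their means, the lysosomal enzymes were the most abundant of the 10 genes at P0, and the ligand and the fusion genes were among the least. At E12.5 the 3 highest were Nfatc1 (6.15 ± 1.70 CPM per kb), Ctsk (6.05 ± 2.89) and Acp5 (5.96 ± 3.13), which lay within their spread of each other.

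The 10 genes did not vary together among the P0 litters. Relative to the mean of the other 3 P0 litters, NPD30 was 6.73-fold lower in Acp5 (19.5 against 131 CPM) and 13.1-fold lower in Tnfrsf11a (3.47 against 45.6 CPM), and it lacked Dcstamp and Ocstamp. It was only 1.26-fold lower in Ctsk (103 against 129 CPM) and 1.34-fold lower in Tnfsf11, and it was 2.25-fold higher in Tnfrsf11b (65.1 against 28.9 CPM). The receptor, the phosphatase and the fusion genes were thus low in this litter, whereas cathepsin K and the ligand were near the others and the decoy receptor was above them. NPD27 was the P0 litter with the highest levels of Tnfsf11, Tnfrsf11a, Dcstamp, Ocstamp, Oscar and Calcr and it was the lowest in Tnfrsf11b.

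Markers of several other cell types also differed between the stages and among the P0 litters, and Ctsk and Tnfsf11 did not follow the macrophage markers in NPD30. The summed level of 10 macrophage markers, of which osteoclasts share Csf1r and Cd68, was 81.8 to 150 CPM in the E12.5 litters and 5222, 5986, 1945 and 77.0 CPM in NPD26, NPD27, NPD28 and NPD30, and 10 of the 10 were called higher at P0. The macrophage list in NPD30 was 56.9-fold below the mean of the other P0 litters, and below every E12.5 litter. The 8 pan-leukocyte markers, all called higher, summed to 47.6 to 93.3 CPM over the E12.5 litters and 313 to 3476 CPM over the P0 litters, with NPD30 lowest. Of 9 neutrophil markers 8 were called higher, and their sum was 3.99 to 15.9 CPM over the E12.5 litters and 759 to 6686 CPM over the P0 litters, highest in NPD28, with Elane at 0 at E12.5.

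Most markers of osteoblasts and hypertrophic chondrocytes, which make RANKL, were also called higher at P0. The 10 osteoblast markers summed to 289 to 1437 CPM over the E12.5 litters and 3913 to 13353 CPM over the P0 litters. Of these markers 7 were called higher, and Bglap2 and Dmp1 were at 0 in all E12.5 litters. Runx2 went the other way and did not pass (51.9 to 39.1 CPM, log2 difference -0.40, edgeR adjusted p = 0.438). Bglap and Bglap2 had too few reads to be tested, and Bglap2 had only 11 over the P0 litters. NPD30 had the highest osteoblast sum, 2.03 times the mean of the other P0 litters. It also had the highest sums of hypertrophic chondrocyte markers (1.62 times) and of notochord and NP markers (2.30 times). Of the 5 hypertrophic chondrocyte markers 3 were called higher, with sums of 22.1 to 61.1 CPM over the E12.5 litters and 446 to 830 CPM over the P0 litters. Pth1r did not pass (edgeR adjusted p = 0.126), and Ihh had too few reads to be tested. Ibsp, which is in both lists, made up 523 of the 830 CPM of the hypertrophic sum in NPD30. The osteoblast and hypertrophic sums are therefore not independent. Col1a1, a gene of type I collagen, made up 11440 of the 13353 CPM of the osteoblast sum in NPD30. The paper reported diffuse type I collagen staining in the newborn NP. Whether either sum reflects RANKL-making cells was not tested. Sclerotome and red blood cell markers went the other way, with 7 of 7 sclerotome markers and 4 of 5 erythroid markers called lower at P0, and sums of 122 to 199 and 8116 to 32833 CPM over the E12.5 litters against 5.03 to 16.1 and 24.8 to 56.0 CPM over the P0 litters. The P0 cells had been sorted for YFP and the E12.5 cells had not. The part of these other cell types in the levels of the 10 genes was not tested.

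**Figure D3:**
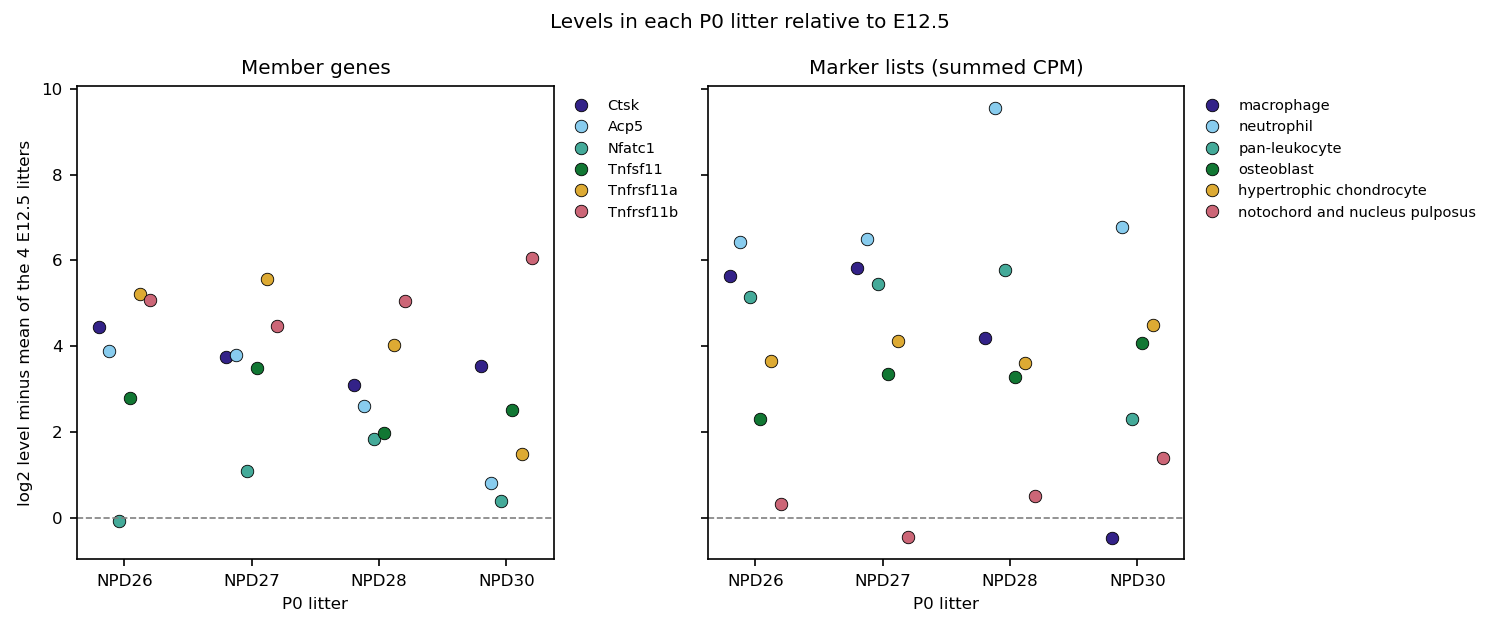
Points give, for each P0 litter (x axis), the log2 level minus the mean log2 level of the 4 E12.5 litters (y axis), for 6 of the 10 genes on the left (log2 CPM with a prior count of 2) and for the summed CPM of 6 marker lists on the right; the dashed line is the E12.5 mean. In NPD30, Acp5, Tnfrsf11a and the macrophage list lie far below the other P0 litters, while Tnfrsf11b, osteoblast and NP markers lie above them.

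The wider pathway was described by 6 lists, which hold 83 genes in all and were also chosen with earlier results of these data known. Of the 76 that passed the filter, 44 were higher and 6 were lower at P0, with a median log2 difference of 1.31 against 0.04 over all genes tested, of which 16.0% were called higher and 12.0% lower. Without NPD30, 48 were higher and 5 lower, in a fit that called 28.1% of all genes. Without the E12.5 litters NDP10.2 and NPD9.2, 33 were higher and 2 lower, in a fit that called 2581 of 16971 genes (15.2%) in place of 4321 of 15467.

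The RANK signal relay, the adaptors, kinases and transcription factors that carry the signal from the receptor, had 10 of 21 tested genes higher and none lower (median 0.93). Higher genes included the AP-1 genes Fos (8.28 ± 8.93 to 222 ± 93.6 CPM, log2 fold change 4.76, edgeR adjusted p = 0.00189) and Junb (6.85 ± 3.04 to 73.2 ± 29.4 CPM, 3.44, adjusted p = 0.00032). Nfkb1, Nfkb2, Rela and Relb, which encode NF-κB subunits, were all called higher. The most abundant genes of the list, Tab2, an adaptor between TRAF6 and its kinase, and Jun, an AP-1 gene, did not pass (log2 differences 0.16 and 0.43, edgeR adjusted p = 0.638 and 0.355), nor did the RANK adaptor gene Traf6 (0.29, edgeR adjusted p = 0.394). Fos and Junb are also known as early response genes in many cell types.

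The costimulation and calcium arm, which works beside RANK through ITAM adaptors, had 12 of 13 tested genes higher and none lower (median 3.86). Syk, the kinase that ITAM adaptors recruit, rose from 3.73 ± 0.962 to 174 ± 130 CPM (log2 fold change 5.56, edgeR adjusted p = 0.000747). The receptor gene Trem2 rose from 3.70 ± 1.08 to 125 ± 117 CPM (5.09, edgeR adjusted p = 0.00854), although NPD30, at 1.51 CPM, lay below all E12.5 litters. Ppp3ca, a calcineurin subunit that activates NFAT proteins in many tissues, went from 139 ± 22.0 to 343 ± 78.0 CPM (1.31, edgeR adjusted p = 0.00303) and was highest in NPD30, at 452 CPM. Nfatc3, another NFAT gene, did not pass (0.22, edgeR adjusted p = 0.55). Most genes of this arm serve macrophages and other blood cells as well. Only 6 of the 13 were called without the E12.5 litters NDP10.2 and NPD9.2, in a fit that called 15.2% of all genes. With limma-voom 7 were called, beside 25.7% of all genes.

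The CSF1 arm, which keeps precursors alive and sets their lineage, had 6 of 8 tested genes higher and none lower (median 2.71). Csf1r, the receptor for the growth factor CSF1, had 10.1 to 28.4 CPM in the E12.5 litters, 35.9 CPM in NPD30 and 458 to 999 CPM in the other P0 litters (log2 fold change 5.03, edgeR adjusted p = 0.00257). Irf8, which restrains osteoclast formation, was also higher (5.11, edgeR adjusted p = 0.00433), and it overlapped with E12.5 through NPD30, at 4.68 CPM.

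In the acid and matrix resorption list 8 of 14 tested genes were higher and 2 were lower (median 1.08). Mmp9, a gelatinase of osteoclasts and neutrophils, had 2.65 ± 0.930 CPM at E12.5 and 110, 148, 1052 and 90.1 CPM in NPD26, NPD27, NPD28 and NPD30 (log2 fold change 7.08, edgeR adjusted p = 0.000911), with its highest level in the litter with the most neutrophil marker reads. Ostm1, which stabilizes the chloride transporter of the acid-secreting membrane, rose from 9.17 ± 3.92 to 39.3 ± 18.8 CPM (2.10, edgeR adjusted p = 0.00561). The vacuolar proton pump subunit gene Atp6v1b2, used in all cells, rose from 102 ± 24.3 to 319 ± 115 CPM (1.65, edgeR adjusted p = 0.00369). Src, a kinase needed for the ruffled border, fell from 59.3 ± 21.8 to 29.0 ± 2.92 CPM (-1.02, edgeR adjusted p = 0.0173), and the membrane metalloproteinase gene Mmp14 fell from 154 ± 27.0 to 88.4 ± 22.8 CPM (-0.79, edgeR adjusted p = 0.0337). Cd109 did not pass (0.63, edgeR adjusted p = 0.446). Only 5 of these genes, all higher, were called without NDP10.2 and NPD9.2, in the fit that called 15.2% of all genes.

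Of the fusion partners 5 of 7 tested genes were higher and none lower (median 2.43). Sirpa, a receptor of macrophages, rose from 33.3 ± 16.0 to 851 ± 593 CPM (4.69, edgeR adjusted p = 0.00315), with NPD30, at 53.0 CPM, inside the E12.5 range. Its ligand gene Cd47 rose from 72.3 ± 5.73 to 258 ± 67.7 CPM (1.84, edgeR adjusted p = 0.000645) and the hyaluronan receptor gene Cd44 from 23.4 ± 3.51 to 324 ± 168 CPM (3.79, edgeR adjusted p = 0.000123), both with every P0 litter above every E12.5 litter. The tetraspanin gene Cd81 did not pass (0.07, edgeR adjusted p = 0.883).

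Other partners and inducers of RANKL and OPG had 3 of 13 tested genes higher and 4 lower (median -0.01), the only list in which as many as 4 fell. The balance turned to 5 higher and 3 lower without the litter NDP10.2, to 4 and 3 without NPD9.2, and to 4 and 2 without both. When at least 10 counts were required in every sample, the 3 higher genes left the test. Of the 10 genes then tested, 0 were higher and 4 were lower. Tnfsf10 encodes TRAIL, another ligand that OPG binds; it had 3 reads over the E12.5 litters and 253 over the P0 litters, a ratio of 64.3 (95% exact interval 21.7 to 314, counting error only; edgeR adjusted p = 0.000492). Ptger4, a prostaglandin E2 receptor gene, rose from 1.64 ± 0.840 to 16.4 ± 6.20 CPM (3.31, edgeR adjusted p = 0.00109). Sema3a, a guidance cue known to protect bone from resorption, fell from 39.8 ± 11.8 to 4.15 ± 1.75 CPM (-3.26, edgeR adjusted p = 0.000323). Efnb2, an ephrin through which osteoclasts and osteoblasts signal to each other, fell from 58.4 ± 9.35 to 7.89 ± 2.06 CPM (-2.89, edgeR adjusted p = 0.000112). Both genes are widely expressed in embryos. Ctnnb1 and Lifr did not pass (-0.47 and -0.01, edgeR adjusted p = 0.201 and 0.983).

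**Figure D4:**
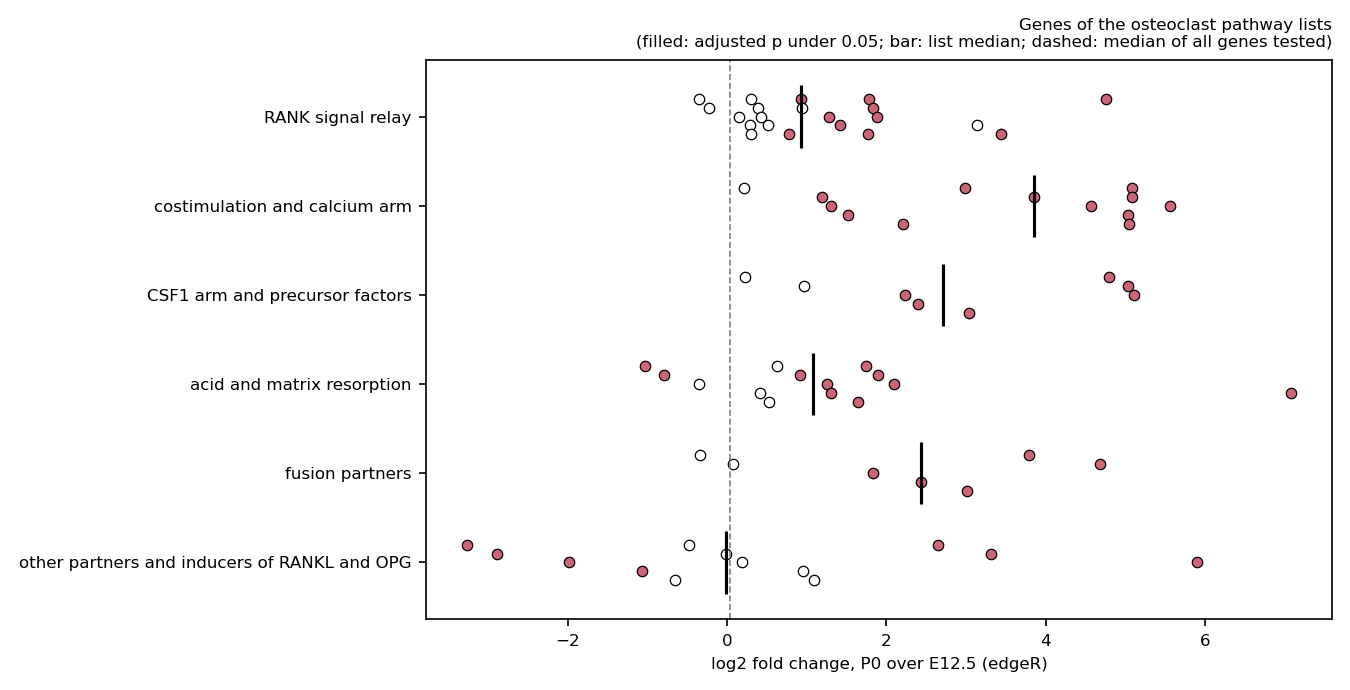
Each point is a tested gene of a list (rows), placed by its edgeR log2 fold change of P0 over E12.5 (x axis); filled points passed at an adjusted p under 0.05, black bars are list medians and the dashed line is the median of all genes tested. The costimulation and calcium arm has the highest median (3.86), and the partners and inducers of RANKL and OPG lie on both sides of 0 (median -0.01).

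The genes whose profiles over the 8 litters were most like those of Acp5, Ctsk and Tnfrsf11b were found by the root mean square difference of log2 CPM, each profile centred on its own mean, among 12666 other genes. For Acp5 these were Smagp, Cyba and B4galnt1 (differences of 0.32, 0.34 and 0.35 log2 units). For Ctsk they were Anxa4, Grik1 and Uap1l1 (0.58, 0.60 and 0.60). Tnfrsf11b had no gene as close, with Il13ra1, Eef1a2 and Anxa11 at 0.77, 0.78 and 0.87. No such gene is given for Tnfsf11, whose E12.5 values were all 0 reads. The libraries are shared by all these profiles, and the most similar gene of each was chosen by the measure itself.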

How the data were processed

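Total RNA from 4 E12.5 and 4 P0 litters was sequenced as single-end reads. Per the study's methods, the authors aligned reads with STAR (2.4.0j per the submitters' processing notes) to GRCm38 and assigned them to Gencode M4 genes with htseq-count. The deposited values are raw counts, 1 per gene and sample, without normalization; rows without a gene (no feature, ambiguous, not unique) were left out. Reads that fit several genes are not counted, so near-identical genes may be underestimated. Symbols were matched for 42462 of 43346 identifiers, and positions are from Gencode M21 on GRCm38. Samples were grouped by the stage in their labels. Litters are separate pools of animals.

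Counts were tested in R 4.3.3 with edgeR 4.0.16 (TMM, filterByExpr at its defaults of 10 reads and 15 reads in total, robust quasi-likelihood F-test, Benjamini-Hochberg adjustment over 15467 genes). The standard error is the log2 fold change divided by the square root of F. A prior count of 2 was used for log2 CPM. Simulated data with known changes were used to check the scripts. Alternatives were DESeq2 1.42.0, limma 3.58.1 (voom), other normalizations and filters, non-robust estimation, mitochondrial and hemoglobin genes left out, and each litter left out. Named in the text are all 10 genes, and from each list the 2 called genes with the largest rise, the 2 with the largest fall and the 2 most abundant. Traf6, the NF-κB subunit genes and NP markers named beyond this rule were chosen after their values were seen. Some genes that this rule or the search for similar profiles would name are not reported here. The genes and lists were chosen with earlier results of these data known.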

Additional observations from a re-analysis of the deposited data

Results flagged for a closer look

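None of the 10 genes had a litter that stood apart from its group by Dixon's test at the 95% level, which chance alone passes in about 1 of 20 groups. The test was run at each stage on each of the 10 genes, on each pathway and marker list and on the RANKL to OPG ratio. With that many groups, a few such litters are expected by chance alone. NPD30 did not pass it in the macrophage or the pan-leukocyte list. Among the marker lists, 3 had a litter that passed. The neutrophil list reached a log2 summed CPM of 12.7 in the P0 litter NPD28, against 9.57 to 9.93 in the other P0 litters. The B lymphocyte list reached 8.49 in the E12.5 litter NPD4, against 5.52 to 5.86 in the other E12.5 litters. The T lymphocyte list was at 0.81 in the E12.5 litter NPD3, against 2.22 to 2.37 in the others, a level of a few reads. NPD28 was also the P0 litter with the highest Nfatc1 and Mmp9 and the lowest Ctsk and Tnfsf11.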

How the results depend on the processing

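Where a fold change could be fitted, no log2 fold change of the 10 genes changed sign under any alternative, nor did the mean log2 ratio of RANKL to OPG at P0. For Tnfsf11 and Dcstamp, with 0 reads at E12.5, the sign could not change. Calcr and Dcstamp were fitted under only 1 alternative and Oscar under 2, since they failed the filter in the others. The count of the 10 genes called was 4, in a fit that called 27.9% of all genes tested. When no filter was applied the count was 7 (Dcstamp, Nfatc1 and Tnfsf11 added), beside 15.2% of all genes. When every sample had to have at least 10 counts it was 2, beside 26.1%, since Tnfrsf11a and Tnfrsf11b then left the test. With each litter left out it was 4 to 5, beside 22.6% to 28.1%. Genes called numbered 4321 of all tested, 3612 to 4529 with each litter left out, and 2581 without NDP10.2 and NPD9.2, a choice made after seeing the data that leaves 2 E12.5 litters. Pathway genes called higher or lower numbered 50, and 44 to 53 with each litter left out. The mean log2 ratio of RANKL to OPG was -4.29 from raw counts plus 0.5, and -4.59 to -3.74 with each litter left out. Upper quartile normalization moved the median of all genes by -0.15, and turned the balance of its calls to 2105 higher and 2322 lower (47.5% higher, against 57.1%); its member calls were the same 4. Depth limits Tnfsf11, Oscar, Calcr, Dcstamp and Ocstamp, each with under 100 reads in all. No paired analysis was possible, since each sample was the pool of a single litter and the litters of the 2 stages were different animals.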
